A study of Mus musculus with 20 samples.

Results

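The regions described are HEB sites that lay in acetylated chromatin away from H3K4me3 in Comma-Dβ cells, an established line of mouse mammary epithelial cells. A region belonged to the set when a site of the HEB consensus list, on a numbered chromosome or X, shared 1 bp or more with an H3K27ac peak and none with an H3K4me3 peak. This rule took 588 of the 882 HEB sites on those chromosomes, out of 956 sites in the whole list. Of the other sites, 180 overlapped both H3K27ac and H3K4me3, 5 overlapped H3K4me3 alone of these 2 marks, and 109 overlapped neither. The regions were thus chosen by measured overlap with H3K27ac and H3K4me3, so every value of these marks at the sites is given below as a description and was not tested.

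The study ran chromatin immunoprecipitation with sequencing (ChIP-seq) on Comma-Dβ cells at passage 28. The groups were HEB, H3K27ac, H3K4me3, H3K27me3 and input chromatin, with 4 replicates each, 20 samples in all. All 5 groups came from 1 cell line grown in the same serum medium with insulin and epidermal growth factor, and no genotype or treatment separated them. The deposited data hold 1 list of peaks per antibody with no value per replicate and no read count, so depth is unknown, no replicate error could be computed and no test between conditions was possible. Intervals below are 95% intervals for a share (Wilson) or a median (order statistics), and they cover counting error only.

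HEB, the product of Tcf12, is an E protein, a basic helix-loop-helix transcription factor that binds E-boxes (hexamers of the form CANNTG) as a homodimer or with a tissue-specific partner. Id proteins lack the DNA-binding region and hold E proteins in inactive pairs. H3K27ac is laid down at active enhancers and promoters alike, while H3K4me3 is concentrated at gene starts, so acetylated sites without H3K4me3 are commonly read as distal regulatory elements. H3K27me3 is the Polycomb mark of repressed chromatin. In this tissue, E proteins and Id proteins are known as regulators of epithelial growth and differentiation.

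The labelled cell type was checked on marker genes, where a gene carried a mark if a peak lay within 1 kb of either end of the gene. Of 7 mammary epithelial genes, 6 carried both H3K27ac and H3K4me3 (Epcam, Cdh1, Krt8, Krt18, Krt5 and Krt14). Trp63, the basal lineage regulator, carried none of the 3 marks at its ends. Starts inside a gene were not checked, so this does not describe the whole Trp63 gene. Epcam, Cdh1 and Krt5 also carried H3K27me3. Both active marks were found at 2 of 10 immune, 0 of 8 endothelial, 4 of 8 stromal fibroblast, 0 of 6 adipocyte, 1 of 6 neuronal and 1 of 7 skeletal muscle markers. Of all protein-coding genes, 43.3% carried H3K27ac and H3K4me3 without H3K27me3, and 5.44% carried all 3 marks. The 4 stromal genes (Pdgfrb, Dcn, Col1a1 and Col3a1) carried no H3K27me3. Of the other stromal markers, Pdgfra carried H3K27me3 alone, and Lum, Dpt and Fap carried none of the 3 marks.

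Sequence could be read where a site covered part of a RefSeq promoter window, which runs from 250 bases before to 50 bases after a gene start. Windows of 14 genes lay under sites of the set, 11 of long noncoding RNA genes and 3 of protein-coding genes (Adcy7, Krtap1-5 and Gm11563). The stretches that lay inside a site are shown for the 8 windows that the sites covered by 150 bases or more, because they are the pieces of these HEB sites whose letters are at hand. The 2 microRNA hairpins that lay wholly within a site of the set, Mir6406 inside Ntn1 and Gm23363 inside Dnm1, are shown for the same reason. Capitals mark E-boxes (CANNTG), U replaces T in the hairpins, and all sequences are from RefSeq on GRCm38.p6, the assembly of mm10, written 5′ to 3′ on the gene's strand.
Gm8883, chr1:71887862-71888161, + strand: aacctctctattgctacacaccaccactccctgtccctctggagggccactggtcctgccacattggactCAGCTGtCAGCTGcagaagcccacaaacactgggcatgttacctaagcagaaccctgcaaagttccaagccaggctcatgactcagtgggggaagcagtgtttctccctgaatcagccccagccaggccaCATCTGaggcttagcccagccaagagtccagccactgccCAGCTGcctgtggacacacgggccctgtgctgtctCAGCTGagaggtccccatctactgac
Gm33078, chr11:57911983-57912158, + strand: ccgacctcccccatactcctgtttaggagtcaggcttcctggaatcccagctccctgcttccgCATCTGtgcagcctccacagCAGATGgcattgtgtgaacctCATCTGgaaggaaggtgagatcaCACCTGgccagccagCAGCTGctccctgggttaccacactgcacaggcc
5033421B08Rik, chr12:8511028-8511213, + strand: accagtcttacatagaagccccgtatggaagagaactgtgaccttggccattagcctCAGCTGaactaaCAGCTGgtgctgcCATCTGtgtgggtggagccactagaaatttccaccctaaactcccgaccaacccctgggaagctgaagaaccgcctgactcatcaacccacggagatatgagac
Gm5546, chr3:104360365-104360568, - strand: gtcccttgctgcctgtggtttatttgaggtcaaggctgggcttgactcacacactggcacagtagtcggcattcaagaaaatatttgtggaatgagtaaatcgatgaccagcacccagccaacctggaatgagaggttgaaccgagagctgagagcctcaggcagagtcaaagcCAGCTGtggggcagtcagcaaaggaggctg
Gm12415, chr4:84741316-84741524, + strand: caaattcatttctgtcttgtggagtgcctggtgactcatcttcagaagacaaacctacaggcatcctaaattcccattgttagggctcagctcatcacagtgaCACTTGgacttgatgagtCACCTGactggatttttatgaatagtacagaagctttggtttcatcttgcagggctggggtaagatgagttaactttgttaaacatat
Gm33448, chr6:100163275-100163574, - strand: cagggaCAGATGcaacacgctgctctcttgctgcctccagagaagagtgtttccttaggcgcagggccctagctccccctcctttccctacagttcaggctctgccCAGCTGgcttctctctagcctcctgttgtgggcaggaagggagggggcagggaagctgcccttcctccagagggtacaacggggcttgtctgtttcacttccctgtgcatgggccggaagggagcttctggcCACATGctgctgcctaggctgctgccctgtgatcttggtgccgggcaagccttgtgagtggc
Gm32861, chr7:110288349-110288505, - strand: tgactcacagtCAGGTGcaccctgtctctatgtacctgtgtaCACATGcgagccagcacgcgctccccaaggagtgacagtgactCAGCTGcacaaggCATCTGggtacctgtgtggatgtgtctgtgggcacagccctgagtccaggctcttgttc
Adcy7, chr8:88282742-88283041, + strand: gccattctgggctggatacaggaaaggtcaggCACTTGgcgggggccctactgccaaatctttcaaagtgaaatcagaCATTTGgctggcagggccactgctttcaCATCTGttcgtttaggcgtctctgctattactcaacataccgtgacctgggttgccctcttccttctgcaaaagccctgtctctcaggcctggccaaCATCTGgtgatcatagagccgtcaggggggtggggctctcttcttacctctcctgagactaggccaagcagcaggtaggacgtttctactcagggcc
Mir6406 hairpin, chr11:68220892-68221011, + strand: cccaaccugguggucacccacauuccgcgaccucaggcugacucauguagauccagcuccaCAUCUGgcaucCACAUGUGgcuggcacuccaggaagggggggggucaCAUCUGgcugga
Gm23363 hairpin, chr2:32318265-32318343, + strand: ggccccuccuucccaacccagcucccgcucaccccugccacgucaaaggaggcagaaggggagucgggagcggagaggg

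The stretches shown differed in their E-boxes, from 1 in the 204 bases of Gm5546 to 5. The Gm8883 stretch, fully covered by a HEB site, held 5 E-boxes. Of these, 4 were CAGCTG, and the first 2 lie 1 base apart. The Gm33078 stretch also held 5, of which 3 were of the CATCTG kind when both strands are read. The stretch of 5033421B08Rik held 3, all within its 186 bases. That long noncoding RNA starts upstream of Rhob, a small GTPase gene of the actin cytoskeleton, and the site lay 11.02 kb from Rhob. In Adcy7, an adenylyl cyclase gene, 2 of the 4 E-boxes were CATCTG. In 4 of the 14 windows no E-box was found (Gm46162, Krtap1-5, Gm11563 and Gm42352), and the sites covered fewer than 150 bases of each of these.

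Over the 14 windows, most E-boxes lay inside the HEB site. The sites covered 2374 of the windows' bases and left 1826 uncovered. Gm8883, Gm33448 and Adcy7 were wholly covered and gave no base outside, while the windows without an E-box were mostly uncovered. Inside and outside rates of every motif are pooled over windows, not paired, and come in part from different promoters. CANNTG occurred 31 times inside the sites, 13.1 per kb, against 6 times outside them, 3.29 per kb. All 32619 promoter windows used held 4.65 per kb. CAGCTG occurred 11 times inside (4.63 per kb) and 1 time outside (0.548), against 0.618 in all windows. CATCTG occurred 10 times inside (4.21) and 2 times outside (1.10), and CACCTG 4 times inside and 0 times outside. These 3 hexamers are forms of CANNTG and are counted within it. Both strands were searched for every motif.

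**Figure D1:**
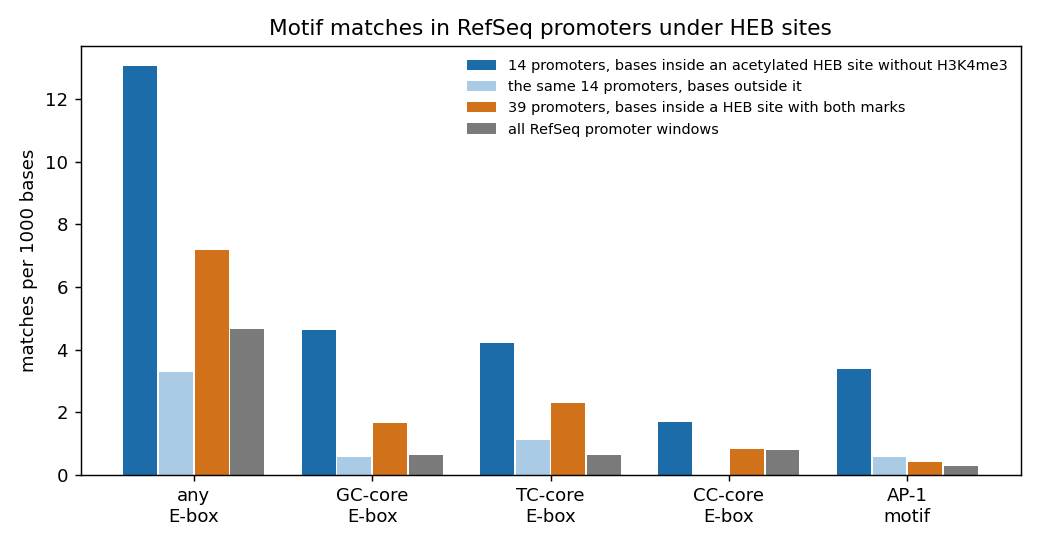
Bars give motif matches per kb (vertical axis) for any E-box (CANNTG), the GC-core (CAGCTG), TC-core (CATCTG) and CC-core (CACCTG) E-boxes and the AP-1 motif (TGANTCA) in RefSeq promoter windows. Inside acetylated sites without H3K4me3 the E-box bar stands at 13.1 and the AP-1 bar at 3.37. The uncovered bases of these windows, pooled, stand at 3.29 and 0.548, and some windows had no uncovered base. There are no error bars because the counts come from 14 and 39 windows without replicates.

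Counted by window instead of by base, E-boxes of any kind did not stand out. At least 1 CANNTG was found in 10 of 14 windows (71.4%), and in 72.3% of all windows. The share with CAGCTG was 7 of 14 (50%, 26.8 to 73.2), against 16.4% of all windows and 21.0% of 1506 windows in H3K27ac peaks with neither H3K4me3 nor HEB. CATCTG was found in 8 of 14 (57.1%, 32.6 to 78.6), against 17.1% and 22.0%. CACCTG was found in 4 of 14 (28.6%), a share whose interval of 11.7 to 54.6 contains the 20.3% of all windows.

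The AP-1 motif TGANTCA, bound by Fos and Jun dimers, was found in 6 of 14 windows (42.9%, 21.4 to 67.4), against 7.85% of all windows and 18.8% of the acetylated windows without H3K4me3 or HEB. Inside the sites it occurred 8 times (3.37 per kb) and outside them 1 time (0.548). In the stretches shown, TGACTCA lies in Gm8883, 5033421B08Rik, Gm5546, Gm12415 and, 2 times, in Gm32861, where the stretch opens with it. The second match in Gm32861 and a TGAGTCA in Gm12415 end in the CA that begins an E-box, so these motifs overlap. In the 39 promoter windows under HEB sites with H3K4me3, CANNTG occurred at 7.18, CAGCTG at 1.66 and TGANTCA at 0.416 per kb inside the sites. CATCTG was frequent there too, in 19 of 39 windows (48.7%, 33.9 to 63.8) and at 2.29 per kb inside the sites, with 0 matches outside. CAGCTG was found in 13 of the 39 (33.3%, 20.6 to 49.0), an interval that overlaps that of the 14 windows. TGTGGTT (Runx) was found in 3 of 14 windows (21.4%, 7.57 to 47.6) against 5.29% of all, with 1 match inside the sites and 2 outside. GGAATG (TEAD) was found in 1 window against 14.6% of all, and the palindromic NFI motif in 0 against 0.0368%. A match describes the letters only, and with 14 windows, chosen because a gene starts there, the shares say nothing of the other sites of the set.

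The windows under these sites were poorer in CpG than those under HEB sites with H3K4me3. They had a median of 4.5 CpG per 300 bases (0 to 9) and 51.7% GC, against 17 CpG (3 to 29) and 60.7% GC in the 39 windows. The rule itself separated these groups of windows by H3K4me3, so the contrast is a description and no independent finding. All promoter windows had 7 CpG and 53.0% GC, and the acetylated windows without H3K4me3 or HEB had 4 CpG and 49.7% GC.

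The HEB sites of the set had a median width of 425 bp (interval 415 to 438, range 172 to 1715). HEB sites with H3K4me3 and H3K27ac were wider, with a median of 466.5 bp (449 to 495), and those with neither mark narrower, at 372 bp (343 to 391). A wider site has more bases with which to touch a mark, so width and class are not independent. The widest site of the set, 1715 bp, lay on chr1:192798329-192800043 near Hhat, the palmitoyltransferase gene of Hedgehog ligands. The second widest, 1427 bp, lay inside Nfic, a nuclear factor I transcription factor gene.

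Few of these sites lay in Polycomb chromatin. H3K27me3, which the rule did not use, covered part of 11 of the 588 sites (1.87%, 1.05 to 3.32), where 6.46% of all 882 HEB sites overlapped it. The share was 20 of 180 (11.1%, 7.31 to 16.5) among HEB sites with H3K27ac and H3K4me3 and 24 of 109 (22.0%, 15.3 to 30.7) among those with neither. The interval of the 588 sites does not meet either of the others. However, the rule required H3K27ac, a mark of the same histone residue as H3K27me3, and left out H3K4me3. These contrasts are thus not independent of the rule and are given as a description. Acetylated peaks in general also overlapped H3K27me3 seldom, 4.19% of all 61430. Counted over the whole peak in the same way, 21 of the 576 host peaks did (3.65%, 2.40 to 5.51), an interval that contains that share. With H3K27me3 peaks of −log10 q of 5 or more the share fell to 0.680%.

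The 11 sites in H3K27me3 were spread over different kinds of gene. The strongest H3K27me3 peak, with a fold enrichment of 2.76 and 82.2 kb wide, took in a site 17.9 kb from C1qb, a complement gene of macrophages. The next was at Cmklr1, the chemerin receptor gene, in a peak of 28.6 kb and fold 2.11. A peak of 2.90 kb and fold 1.96 covered the site at the start of Gm33448, whose sequence is shown above and whose nearest protein-coding gene is Rybp, a Polycomb complex subunit. The 2 others among the 5 strongest lay inside Dnm1 (fold 1.95) and, in a peak of 25.7 kb, inside Iqsec2 on X (fold 1.94). The H3K27ac folds of these 5 sites ran from 2.47 to 3.88, all below the 4.07 median of the set. Of the 5 sites of the set on X, 2 were among the 11.

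H3K27ac at the sites is described by the host peak, the H3K27ac peak with the longest overlap, and by its deposited fold enrichment, a ratio of ChIP over control. The median host fold was 4.07 (interquartile range 2.89 to 5.60, range 1.37 to 13.4) and the median host width 3.57 kb. All 61430 H3K27ac peaks on these chromosomes had a median fold of 2.39 and a median width of 1.33 kb. The 47932 H3K27ac peaks without H3K4me3 had 2.19 and 1.13 kb. Host peaks of HEB sites with H3K4me3 were stronger, at a median fold of 5.61, and 4.23 kb wide. In the top 10% of H3K27ac folds lay the host peaks of 178 sites of the set (30.3%), and below the median fold those of 67 (11.4%). Host peaks and all peaks are not compared like for like, because a wide peak has more bases in which a site can fall. Host fold also rose with host width, and the part of peak width in these values was not tested.

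Host peaks were mostly occupied once. The 588 sites lay in 576 H3K27ac peaks, 564 with 1 site and 12 with 2. Among the 12 were peaks in Notch2, Nfic, Adcy7 and Traf5 and one downstream of Lif. The 576 host peaks were 504 of the 47932 H3K27ac peaks without H3K4me3 (1.05%) and 72 of the 13498 with it (0.533%). The rule left out sites that overlap H3K4me3, which lowers the second share by construction. Of all 768 HEB sites in H3K27ac, 256 (33.3%) had a host peak that overlapped H3K4me3. Most sites lay wholly inside the acetylated peak (548, 93.2%), and the centre of 412 (70.1%) fell in its middle 50%.

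The 5 strongest host peaks lay on 5 different chromosomes, near genes of different kinds. A peak of fold 13.4 and 6.22 kb lay 29.6 kb downstream of Crabp1, which encodes a cytosolic carrier of retinoic acid. A site inside 2310022B05Rik lay in a peak of fold 12.6, and a site 83.0 kb from 1700001O22Rik in one of fold 11.8. The peak in Asap1, a regulator of Arf GTPases and of focal adhesions, had a fold of 11.7. The fifth, of fold 11.3, lay 32.1 kb from Coq2, a gene of coenzyme Q synthesis.

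The widest host peaks named here lay on chromosomes 8 and 10. A peak of 91.9 kb overlapped Nfix, a second nuclear factor I gene, with the HEB site inside the gene, 48.0 kb from its nearer end. In Nfic, 2 sites shared a peak of 35.7 kb. Lrp1, a lipoprotein and matrix receptor gene, had a peak of 33.4 kb, and Unc5b, a netrin receptor gene, one of 28.8 kb. All 5 of these sites lay in peaks that also touched H3K4me3. Host peaks of 10 kb or more held 71 sites (12.1%), while 1.16% of all H3K27ac peaks were that wide. A wide peak has more bases in which a site can fall, so a share of sites and a share of peaks are not like measures.

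**Figure D2:**
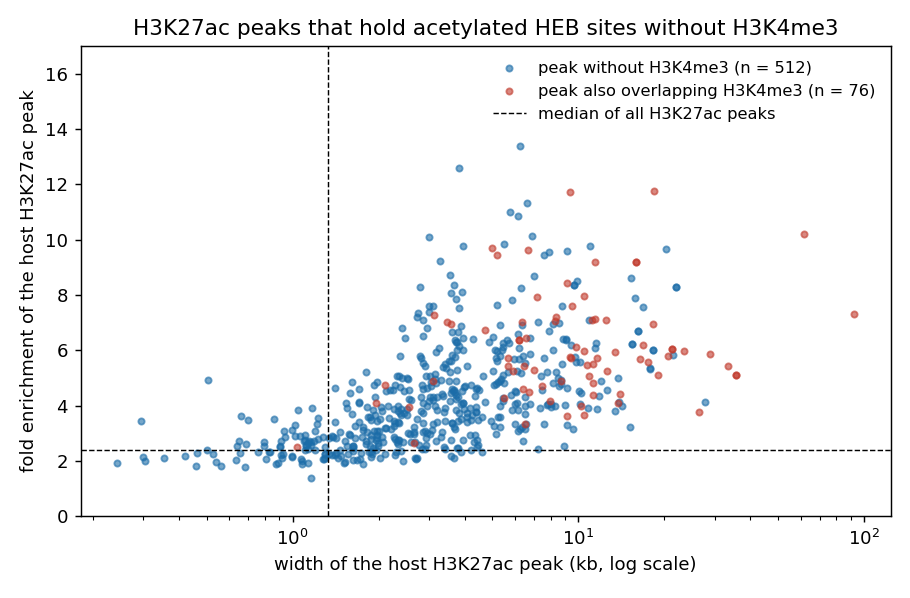
Each point is 1 of the 588 sites, placed by the width of its host H3K27ac peak (horizontal, kb, log scale) and the deposited fold enrichment of that peak (vertical); colours separate host peaks with and without an H3K4me3 overlap and dashed lines mark the medians of all H3K27ac peaks (1.33 kb and 2.39). Most points lie right of and above both lines, and the peaks that also overlap H3K4me3 are mostly wide, with a median of 9.66 kb.

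Not all sites free of H3K4me3 lay in a domain free of it. For 76 sites (12.9%, 10.5 to 15.9) the host H3K27ac peak reached an H3K4me3 peak elsewhere along its length. These 76 sites lay a median of 2.03 kb from H3K4me3 and 6.69 kb from a gene end, in peaks of median fold 5.74 and width 9.66 kb, and 37 of them had a host peak of 10 kb or more. The other 512 lay a median of 31.9 kb from H3K4me3 and 28.1 kb from a gene end, in peaks of fold 3.86 and width 3.10 kb, 34 of 10 kb or more. A long peak has more room to reach H3K4me3, so width and this split are not independent. Site widths were near each other, at 427 and 424.5 bp. All 11 sites with H3K27me3 were among the 512, and 0 of the 76 overlapped it (upper limit 4.81%).

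Host fold rose with host width but said little about the HEB site itself. When the set was divided into 4 equal groups of 147 by host fold, median host width was 1.53, 2.96, 4.01 and 6.37 kb from the lowest group to the highest. Median site width in the same order was 408, 426, 449 and 433 bp, and median distance to a gene end 25.5, 27.9, 24.1 and 23.4 kb. Over the 588 sites the Spearman correlation was 0.669 between host fold and host width and 0.136 between host fold and site width, both given as descriptions over sites of 1 list.

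The sites lay far from gene ends, either end of a protein-coding gene in the RefSeq table. Only 21 (3.57%, 2.35 to 5.40) were within 1 kb of one, 259 (44.0%, 40.1 to 48.1) were inside a gene and farther than that, and 308 (52.4%, 48.3 to 56.4) lay between genes. Among HEB sites with H3K27ac and H3K4me3, 46 of 180 (25.6%, 19.7 to 32.4) were within 1 kb of a gene end, and among those with neither mark 8 of 109 (7.34%, 3.77 to 13.8). H3K4me3 marks gene starts, so the contrast with the 180 sites follows in part from the rule. The median distance to a gene end was 24.9 kb (22.2 to 28.3) in the set, 10.0 kb (3.98 to 14.9) in the 180 and 20.1 kb (11.3 to 29.99) in the 109, whose interval contains the value of the set.

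**Figure D3:**
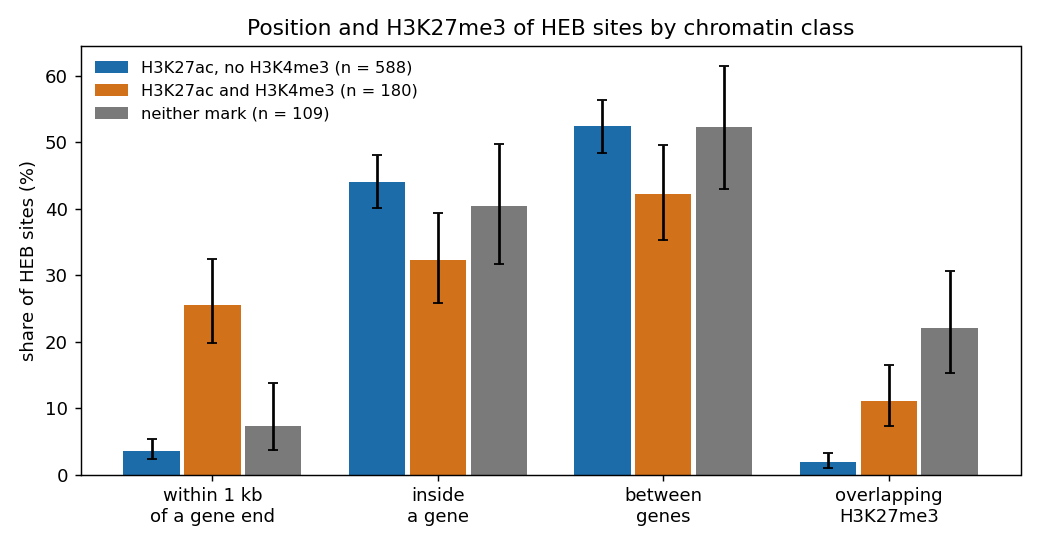
Bars give the share of HEB sites (vertical axis, %) within 1 kb of a protein-coding gene end, inside a gene, between genes and overlapping H3K27me3, for 3 chromatin classes, with Wilson 95% intervals of counting error. The 588 sites with H3K27ac and no H3K4me3 have the lowest bars within 1 kb of a gene end (3.57%) and over H3K27me3 (1.87%).

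The range of distances was wide. In the set, 161 sites (27.4%) were 10 kb or less from a gene end and 95 (16.2%) more than 100 kb away. The 6 sites that touched a gene end lay at S100a5, a calcium-binding protein gene, at Krtap1-5, a keratin-associated protein gene, at Gm11563, at Atp6v0e2, a proton pump subunit gene, at Aldh3a1, an aldehyde dehydrogenase gene, and at Rex1bd. The 3 farthest had Gata3, Zeb2 and Cdh18 as their nearest genes, at 1228, 1070 and 825 kb, in host peaks of fold 2.73, 3.09 and 4.85. At such distances the nearest gene is only a landmark. Counting all RefSeq gene types, 362 sites (61.6%) lay inside a gene. For 206 sites inside a protein-coding gene of known strand, 35 (16.99%, 12.5 to 22.7) lay in the first 25% of the gene's length and 52 (25.2%, 19.8 to 31.6) in the last 25%. The rule left out sites that overlap H3K4me3, which marks gene starts, so these shares are not independent of it.

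The nearest H3K4me3 peak was a median of 24.7 kb away (21.7 to 29.7). It lay within 1 kb of 23 sites, within 10 kb of 156 and over 50 kb from 194 (33.0%). The sites nearest to H3K4me3 lay 15, 17 and 20 bp from it, near Lca5, Serpinf1 and Gm41291, and sites just outside the set shared 6 and 12 bp with H3K4me3, in Sh3d21 and Kdm7a. On the H3K27ac side the shortest overlaps in the set were 36, 36 and 42 bp, near Hipk2, Lmo4 and Mfap2. The nearest sites left out lay 5, 56 and 60 bp from H3K27ac, near Hivep3, Septin7 and Iqcn. Another HEB site lay within 10 kb of 48 sites of the set and within 50 kb of 122 (20.7%).

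**Figure D4:**
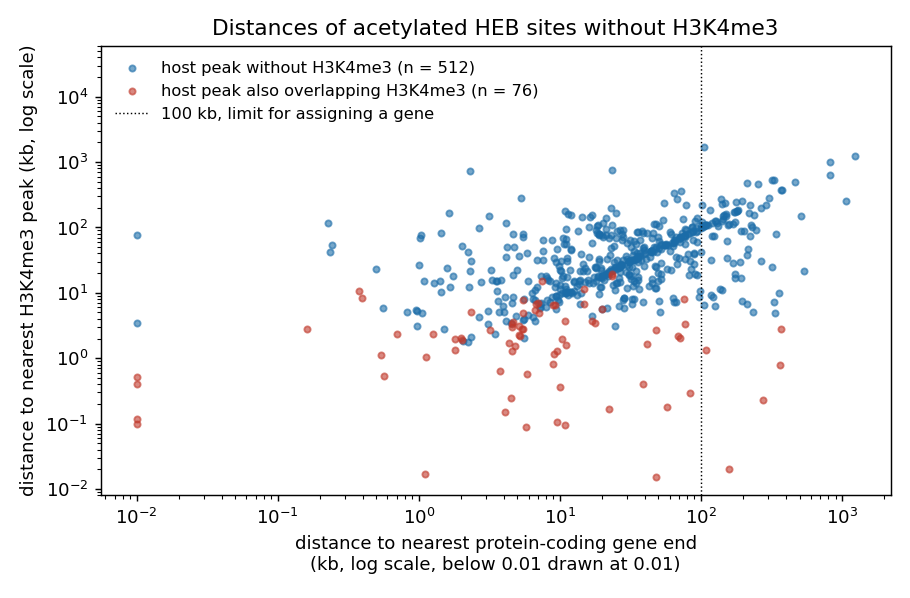
Each point is 1 of the 588 sites, by its distance to the nearest protein-coding gene end (horizontal, kb, log scale) and to the nearest H3K4me3 peak (vertical, kb, log scale); the dotted line marks 100 kb. Points in host peaks that also overlap H3K4me3 lie low on the plot (median 2.03 kb from H3K4me3), and a diagonal band holds sites whose nearest H3K4me3 peak is about as far as their nearest gene end.

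The set was spread over all numbered chromosomes and X. Relative to acetylated sequence it had 4.90 sites per Mb of H3K27ac, from 2.71 on X and 2.78 on chromosome 13 to 6.85 on chromosome 15 and 6.99 on chromosome 17. Chromosomes 11, 5, 1 and 15 held the most, 53, 51, 50 and 50.

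For 493 sites the nearest gene end was within 100 kb, which gave 438 genes a site, 2.00% of the 21887 that code for protein. The assignment names a neighbour, and 24 sites lay inside one gene and nearer to an end of another. One site was assigned to each of 393 genes, 2 sites to each of 39, 3 sites to each of Col18a1, Gse1, Polr1a and Zcchc24, and 4 to Rxra. Rxra encodes the shared partner of the retinoic acid and other nuclear receptors. Its 4 sites began inside the gene near its downstream end and ran to 49.9 kb beyond it, with folds of 4.70, 4.84, 5.72 and 3.73.

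Marks at the ends of these genes are given as a description, because H3K27ac and H3K4me3 chose the sites and a host peak can itself reach a gene end. H3K27ac was within 1 kb of an end of 328 of the 438 genes (74.9%, 70.6 to 78.7), against 53.4% of all protein-coding genes. H3K4me3 was there at 331 (75.6%, 71.3 to 79.4), against 55.8%. H3K27me3 was there at 121 (27.6%, 23.6 to 32.0), against 32.3%. Of the 438, 247 (56.4%) carried H3K27ac and H3K4me3 without H3K27me3, against 43.3% of all genes. None of the 3 marks was found at 29 (6.62%), against 19.1%, and H3K27me3 alone at 39 (8.90%), against 20.4%. Of the 45 genes with 2 or more sites, 40 (88.9%, 76.5 to 95.2) carried H3K27ac and 40 carried H3K4me3.

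Among E proteins and their inhibitors, sites were assigned to 2 of 7 genes, both Id genes. A site on chr12:25189242-25189657 lay 93.1 kb upstream of Id2 in a peak of fold 2.97. A pair lay 32.8 and 26.4 kb upstream of Id3, in separate peaks of fold 2.07 and 4.73, 12.7 and 6.27 kb from H3K4me3. No site of the set was assigned to Tcf12, Tcf3, Tcf4, Id1 or Id4, and all 7 genes carried H3K27ac and H3K4me3 at an end. The counts for this list and those below stand beside the 2.00% of all protein-coding genes that were assigned a site. At that share a short list can hold no gene with a site.

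Of 8 regulators of the epithelial-mesenchymal transition (EMT), 1 had sites. Snai1 encodes the zinc finger repressor of E-cadherin. Its sites lay 0.537 kb and 27.2 kb downstream, in peaks of fold 8.45 and 7.10, the first 1.10 kb from H3K4me3 within the same acetylated peak.

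In the Notch pathway 3 of 22 genes had sites. Notch1 and Notch2 encode receptors, and Hes1 encodes a repressor that the pathway induces. The Notch1 site lay inside the gene, 8.96 kb from its nearer end, in a peak of fold 3.64. Inside Notch2, 2 sites 42.8 and 49.9 kb from an end shared a peak of 15.4 kb and fold 6.24. The Hes1 site lay 31.1 kb away with fold 2.98.

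In the Wnt pathway 3 of 28 genes had a site. The ligand genes Wnt7b and Wnt10a had sites 11.3 and 3.74 kb away, with folds of 5.77 and 5.26, and both genes carried all 3 marks at their ends. Tcf7l1, a DNA-binding repressor of Wnt targets, had a site 76.9 kb inside it with fold 3.81.

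In the TGF-beta pathway 3 of 19 genes had sites. The coreceptor gene Tgfbr3 had 2, 18.9 and 89.4 kb from its ends (folds 5.06 and 4.65). The induced matrix protein gene Tgfbi had 2 upstream, at 27.1 and 8.86 kb (folds 5.53 and 5.78). Ski, a corepressor of Smad proteins, had 1 inside the gene (fold 6.39).

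The extracellular matrix list, the longest, held the most sites, 18 at 14 of its 46 genes (30.4%, where 2.00% of all protein-coding genes were assigned a site). The 2.00% is over all genes, and every list with any site stood above it. This was fixed by list length, because in a list of 46 genes or fewer 1 gene with a site already exceeds 2.00%. Endothelial markers stood at 25% and housekeeping genes at 8.33%, while some lists had no site, as given below. The lists were chosen with earlier results of these data known. Collagens made up most of the matrix genes with a site, and they were also the largest gene family of the list. The listed collagens Col5a2, Col5a3, Col6a2, Col7a1, Col12a1 and Col17a1 had no site of the set. For the fibrillar collagens, the Col1a1 site lay 6.95 kb from the gene in a peak of 26.4 kb (fold 3.78). The Col1a2 site lay 47.7 kb upstream (fold 6.41), that of Col3a1 23.2 kb upstream (fold 3.00) and that of Col5a1 27.6 kb upstream (fold 4.91). For basement membrane collagens, which form sheets under epithelia, Col4a1 had 1 site and Col4a2 had 2, the latter inside the gene with folds of 4.59 and 3.17. Col18a1 had 3, of fold 3.57, 2.65 and 6.69, the last 40.3 kb upstream. Hspg2, the perlecan gene, had 1 inside it in a peak of 11.6 kb (fold 6.25).

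Microfibrillar and other matrix genes followed. Col6a1 had 2 sites, 39.6 kb downstream and 6.74 kb upstream, with folds of 3.12 and 5.06. Col6a3 had 1 in a peak of 0.686 kb, 145 kb from H3K4me3, and the gene carried none of the 3 marks at its ends. Col16a1 had 1 site 3.22 kb upstream (fold 5.92). Sparc, a collagen-binding glycoprotein gene, had 1 site 8.14 kb upstream (fold 6.89), Fbln1, a fibulin gene, 1 inside it (fold 3.09), and Timp2, a metalloproteinase inhibitor gene, 1 site 9.61 kb upstream (fold 7.19). Fbln1 carried H3K4me3 and H3K27me3 at its ends, without H3K27ac. No laminin, nidogen, lysyl oxidase or thrombospondin gene of the list had a site of the set.

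The actin cytoskeleton and focal adhesion list had sites at 5 of 35 genes (14.3%). Actn1, which encodes an actin crosslinker, had a site inside it with a fold of 5.83. Tns3, a focal adhesion gene, had 2 inside it (folds 5.34 and 4.41). Rhob had the site whose sequence is shown above (fold 3.44), and Rnd3 one 70.6 kb upstream (fold 2.86).

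Epithelial adhesion and keratin genes had sites at 3 of 24. The E-cadherin gene Cdh1 had one inside it, 16.0 kb from an end, with fold 5.57. Tjp1, the ZO-1 gene of tight junctions, had one inside with fold 6.95, 0.182 kb from H3K4me3. At their ends Tjp1 carried H3K27me3 alone and Cdh1 all 3 marks. Krt8, a simple epithelial keratin gene, had one of 882 bp 0.571 kb upstream with fold 5.43. Krt8 also stood in the list of luminal mammary genes, where 2 of 16 had sites. The other was Lif, a cytokine gene, with 2 sites about 28.2 and 29.8 kb downstream in 1 peak of 21.9 kb and fold 8.29. Of 16 basal mammary genes 0 had a site of the set, where 2.00% of all protein-coding genes had one.

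The list of NFI, AP-2, Runx, TEAD and Yap factors had sites at 5 of 16 genes (31.2%). Besides Nfic and Nfix above, these were Runx3 (24.5 kb upstream, fold 5.74), Tead1 (inside, fold 2.52) and Wwtr1, the TAZ gene of the Hippo pathway (inside, fold 3.82). Retinoid receptor and binding genes had sites at 2 of 13, Rxra and Crabp1. The second Crabp1 site lay 14.6 kb downstream in a weak peak of fold 2.02, against 13.4 at the first. Crabp1 itself carried H3K4me3 and H3K27me3 but no H3K27ac at its ends.

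The other lists had few or none. Cell cycle genes had 1 of 15, Myc, with a site 89.0 kb away (fold 5.21), and housekeeping genes 1 of 12, Ywhaz, at 26.9 kb (fold 4.65). Ywhaz carried none of the 3 marks at its ends. AP-1 genes had 0 of 9 and EGF family and ErbB genes 0 of 12. Among markers of other cells, endothelial genes had 2 of 8 (Cdh5 and Flt1, 78.1 and 52.1 kb away), stromal fibroblast genes 2 of 8 (Col1a1 and Col3a1), skeletal muscle genes 1 of 7 (Mb), and immune, adipocyte and neuronal genes 0 of 10, 0 of 6 and 0 of 6. Cdh5 carried none of the 3 marks at its ends and Flt1 carried H3K4me3 and H3K27me3. Col1a1 and Col3a1 both carried H3K27ac and H3K4me3, as did 4 of 8 stromal markers, and the part of stromal-like cells in the collagen counts was not tested. No list was tested against the 2.00% of all genes.

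**Figure D5:**
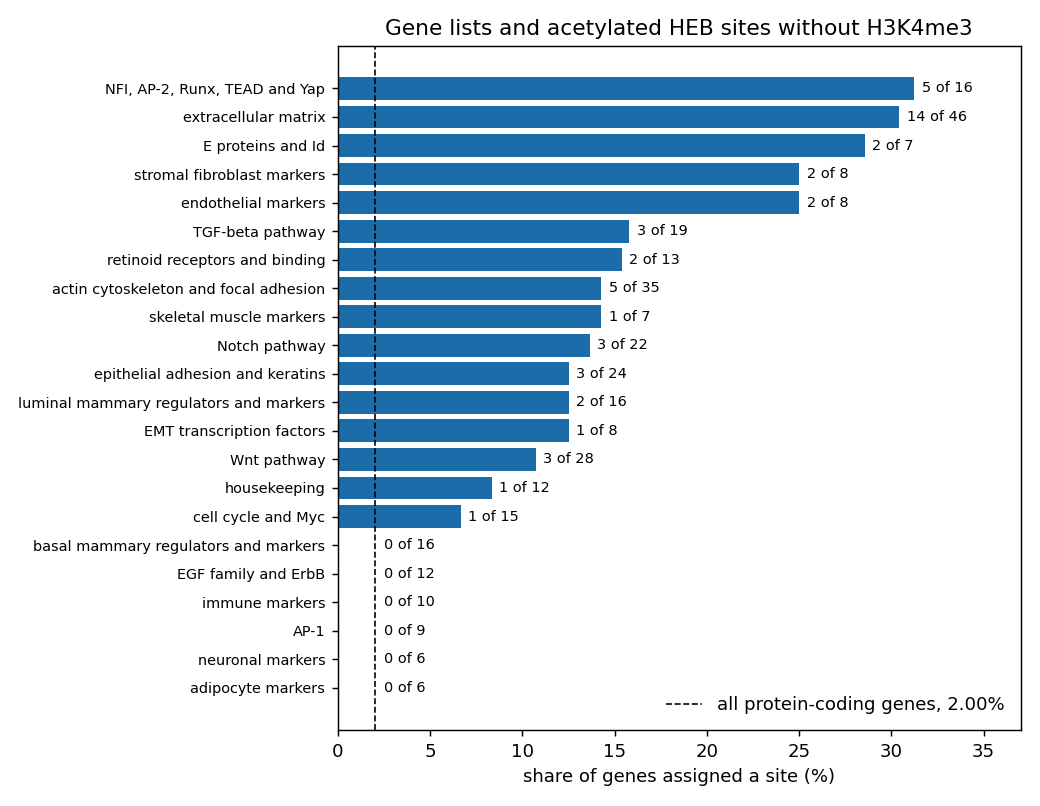
Bars give, for each of 22 gene lists, the share of genes (horizontal axis, %) with an acetylated HEB site without H3K4me3 assigned within 100 kb, with counts beside the bars and the dashed line at the 2.00% of all protein-coding genes. The longest bars are NFI, AP-2, Runx, TEAD and Yap factors (5 of 16) and extracellular matrix (14 of 46).

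MicroRNA genes were near few sites, with a hairpin within 10 kb of 13 sites (2.21%, 1.30 to 3.75) and of 1.69% of all H3K27ac peaks. The miR-199 family, known for its expression in mesenchymal and muscle cells, appeared 2 times. Mir199b lay 0.095 kb from the H3K27me3-bearing site inside Dnm1 (host fold 2.56), and Mir199a-1 lay 0.326 kb from a site in Dnm2 (host fold 4.80). Both hairpins overlapped H3K27ac and neither overlapped H3K4me3. The third locus of the family, Mir199a-2 with Mir214, had no mark and lay 117 kb from the nearest HEB site. The mature sequences are printed to show that both sites adjoin genes of 1 seed, capitals marking the seed (bases 2 to 8).
miR-199b-3p: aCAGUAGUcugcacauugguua
miR-199a-3p: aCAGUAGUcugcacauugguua
miR-199a-5p: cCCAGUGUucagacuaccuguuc

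The 3p products of Mir199b and Mir199a-1 are identical over 22 bases, and the 5p product has a different seed. Mir6406, shown above, carried 4 E-boxes, 2 of them CAUCUG, within its 120 bases, and its site in Ntn1 had a weak host peak of fold 2.01. Gm23363, in the same Dnm1 site that adjoins Mir199b, carried 0 in its 79 bases.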

How the data were processed

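ChIP-seq of 20 samples of Comma-Dβ cells (4 each of HEB, H3K27ac, H3K4me3, H3K27me3 and input) was deposited as 1 peak list per antibody. Coordinates are mm10 and SAMtools was used, per the submitters' processing notes; for the aligner, peak caller, control and combining of replicates, nothing is given in the sources used here. For HEB the list, a consensus with a minimum overlap of 2 by its deposited name, holds positions only. The lists of marks give for each peak a deposited score (not used), fold enrichment (a ratio) and −log10 q-value, all the authors' own and used within a list. Depth is unknown, and no value per replicate was used.

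Overlaps of 1 bp or more, distances and intervals were computed with Python 3.11.15, pandas 2.3.3, numpy 2.4.6 and scipy 1.17.1, after the overlap code was tested on simulated intervals. Gene positions, promoter windows and microRNAs came from RefSeq tables of GRCm38.p6, whose symbols matched all 332 genes of the 22 lists; promoter windows of chromosome 18 were not used here. A planned count of E-boxes over whole sites needs genome sequence not used here and was replaced by promoter windows. Genes were named by rule: the 5 strongest and the 5 widest host peaks, genes with 3 or more sites, list genes with a site, the nearest to and farthest from gene ends, the 5 strongest H3K27me3 overlaps, and the sites at the limits of the definition. The widest sites, the neighbour genes Traf5 and Hhat, the microRNA loci and the promoter windows were chosen after their values were seen. A few results that these rules name are not reported here. The regions and lists were chosen with earlier results of these data known. Alternatives changed the overlap, peak thresholds, chromosomes, windows and gene assignment.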

Additional observations from a re-analysis of the deposited data

How the results depend on the processing

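Of 80 values computed under 14 alternatives for 10 results, 70 stayed within the interval of the reported value or, for counts, within 1.5 times it. The number of sites ran from 504 (H3K27ac peaks of −log10 q of 5 or more) to 625 (H3K4me3 peaks of −log10 q of 5 or more), and was 399 without chromosomes 5, 11, 15 and 17, an alternative chosen after seeing the data. The share of sites whose host peak also overlaps H3K4me3, 12.9%, became 17.4% when marks had to cover 50% of the site, 10.1% with H3K4me3 peaks of −log10 q of 5 or more and 9.38% with no H3K4me3 within 1 kb. The median host fold, 4.07, became 4.50 with H3K27ac peaks of −log10 q of 5 or more and 4.38 with peaks above the median fold, both of which drop weak peaks by construction. The share overlapping H3K27me3 became 0.680% with H3K27me3 peaks of −log10 q of 5 or more. The share near a gene end, 3.57%, was 2.21% for 500 bp and 8.84% for 2500 bp. Genes assigned a site, 438, were 158 within 10 kb and 1620 when every gene end within 100 kb counted. An E-box count over the central bases of each site was not run, for want of sequence. No paired analysis was possible because the deposited lists carry no column per replicate. Depth is unknown and limits every share by an amount that could not be computed.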
